A study of Zea mays with 4 samples.

Results

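The genes described here encode the enzymes that carry carbon through the C4 cycle of maize, together with the carbonic anhydrases that feed it. They were chosen as a list of 9 gene names, and the row with the highest mean FPKM was taken where a name had several. The list found 7 of the 9 names among 43110 distinct loci. They are phosphoenolpyruvate carboxylase (PEPC), pyruvate orthophosphate dikinase (PPDK), NADP-dependent malate dehydrogenase (NADP-MDH), phosphoenolpyruvate carboxykinase (PEPCK) and 3 carbonic anhydrases. NADP-dependent malic enzyme (NADP-ME, GRMZM2G085019) was not analysed here. The PPDK regulatory protein (GRMZM2G131286) had no row under that name either, and it was followed through the row with the symbol PDRP1, the symbol that RefSeq gives to that identifier.

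Leaf 6 of the maize inbred line B73, grown in hydroculture, was compared between high nitrogen (4 mM nitrogen, supplied as nitrate) and low nitrogen (0.04 mM). The study's methods describe the material for RNA as mature tissue of a leaf still expanding. They give these concentrations for nitrate, while its figure legends give them for calcium nitrate. There were 2 libraries per treatment and 4 in all. All plants started in high nitrogen, and the low nitrogen plants were moved to the dilute solution after the third leaf had opened fully. The series describes the replicates as biological, but how many plants stand behind a library was not given in the sources used here.

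In C4 leaves, carbon is fixed in the mesophyll, moved as an organic acid to the bundle sheath around the veins, and released there beside Rubisco. Carbonic anhydrase turns CO2 into bicarbonate in the mesophyll cytosol, and PEPC joins it to phosphoenolpyruvate to give oxaloacetate. NADP-MDH reduces oxaloacetate to malate in mesophyll chloroplasts, and NADP-ME and PEPCK release the CO2 in the bundle sheath. PPDK then rebuilds phosphoenolpyruvate from pyruvate in mesophyll chloroplasts, and its regulatory protein switches PPDK off in the dark and on in the light. These enzymes hold a sizeable part of the nitrogen of a C4 leaf.

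Expression was deposited as FPKM, a fragment count scaled by transcript length and by sequencing depth, so levels of different genes can be set side by side per length. The FPKM sum over the table was 1798408 and 1764398 for high nitrogen, against 1141129 and 1043303 for low nitrogen. Fragment totals are unknown from FPKM. Relative depth was estimated from loci of very low FPKM in both libraries compared. The most frequent FPKM ratio of high nitrogen replicate 1 to another library was 1.13 (high nitrogen), 1.45 and 1.72 (low nitrogen). It stands for relative depth only where such loci hold equal fragment counts, which was not tested. In bulk leaf RNA, fewer cells of a type and less RNA per cell cannot be told apart.

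Among the 7 genes, PEPC and the carbonic anhydrase GRMZM2G121878 had the largest differences. Their mean FPKM in low nitrogen was 22.7% and 21.3% of that in high nitrogen. PPDK kept 54.4% and PEPCK, the bundle sheath enzyme, 83.9%. At 6 of the 7 genes, PEPCK being the exception, each low nitrogen library was below each high nitrogen library, which was so at 27.2% of the 22889 tested loci.

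The difference was tested on log2(FPKM + 1) with limma, which shares an estimate of the spread across loci, with Benjamini-Hochberg adjustment over all tested loci. Calling required an adjusted p under 0.05 together with a log2 fold change beyond 1 in size. None of the 7 genes met this in that fit of limma, the one tool run, while 0.537% of all tested loci did, and 0.489% on the lower side. The unadjusted limma p was under 0.05 for 5 of the 7 genes, all lower in low nitrogen. Over all tested loci it was so at 20.1% in either direction and 10.8% lower. The count of 5 depended on the scaling of the libraries, as given below. The smallest two-sided p that an exact permutation of 2 libraries against 2 allows is 0.333.

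In the deposited FPKM, the most expressed loci of the leaf were lower in low nitrogen as a class. Among them are 6 of the 7 genes, all but GRMZM2G094165. Of the 151 tested loci with a mean of at least 1000 FPKM over the 4 libraries, 70.2% were lower at an unadjusted p under 0.05 by limma, and 78.1% had each low nitrogen library below each high nitrogen library. A log2 fold change below -1 was found at 4 of the 7 genes and at 61.6% of these loci. The 7 genes had a median log2 fold change of -1.20, compared with -1.18 for those 151 loci and -0.01 for all tested loci. The counts and the median of the 7 genes were thus close to those of highly expressed loci as a class. The class was not read under another scaling of the libraries. The mean that defines it includes the high nitrogen libraries, which favours loci that are high there. The genes were spread widely within that class. Only 6 of the 151 loci had a lower log2 fold change than GRMZM2G121878 and 7 had a lower one than PEPC, while 104 were lower than PPDK and 127 lower than PEPCK. The 7 genes together took 2.87% and 2.20% of the FPKM sum under high nitrogen, against 1.74% and 1.53% under low nitrogen.

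The sizes, and the count of genes at an unadjusted p under 0.05, depended on how the libraries were scaled. By limma 5 of the 7 genes passed in the deposited FPKM and 6 with equal library medians. At equal FPKM sums 2 passed, and under quantile normalization 1. Over all tested loci the counts were 4603, 4661, 9299 and 4350 in the same order. Bringing the libraries to equal FPKM sums raised the median log2 fold change of all tested loci by 0.604, and the genes moved up with it. PEPC was then at -1.47, GRMZM2G121878 at -1.64 and GRMZM2G094165 at -1.23. NADP-MDH was at -0.49, PPDK at -0.15 and GRMZM2G348512 at -0.02. Quantile normalization, which moved that median by 0.0125, placed PEPC at -1.02, GRMZM2G121878 at -1.38 and NADP-MDH at -0.49. PEPC, NADP-MDH, GRMZM2G121878 and GRMZM2G094165 were below 0 under both scalings, and PPDK, GRMZM2G348512 and PEPCK were above 0 under quantile normalization.

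**Figure D1:**
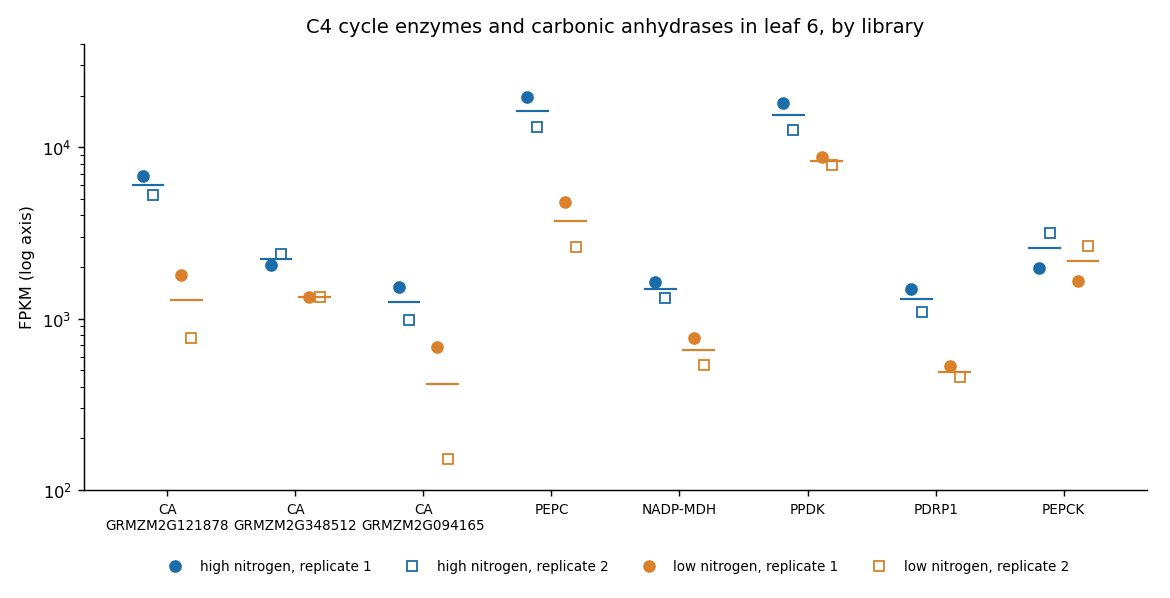
FPKM (log axis) of the 7 genes and of PDRP1 in each of the 4 libraries; circles are replicate 1, open squares replicate 2, and horizontal bars the mean of the 2 libraries of a treatment (CA, carbonic anhydrase). The treatments do not overlap except at PEPCK, and low nitrogen replicate 2 lies lowest at each gene shown other than PEPCK.

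Carbonic anhydrase GRMZM2G121878 is at 215547876 to 215555228 of chromosome 3 in B73 RefGen_v3. Its level was 6822 and 5262 FPKM under high nitrogen, and 1799 and 771 FPKM under low nitrogen. Both low nitrogen libraries were far below both high nitrogen libraries, and the low nitrogen libraries differed from each other as well. The means were 6042 ± 1103 and 1285 ± 727 FPKM (SD, n = 2 each), a log2 fold change of -2.35 (SE 0.48, adjusted p = 0.124 from limma).

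The neighbouring carbonic anhydrase GRMZM2G348512 is at 215506034 to 215518935 of the same chromosome. It had 2064 and 2373 FPKM under high nitrogen, and 1338 and 1331 FPKM under low nitrogen. The groups did not overlap, and the low nitrogen libraries were almost equal. Its log2 fold change was -0.73 (SE 0.26, adjusted p = 0.219 from limma), and it turned to 0.19 under quantile normalization of the libraries. RefSeq lists this identifier under 2 genes, and whether the locus of the table holds fragments of both was not tested.

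The carbonic anhydrase GRMZM2G094165 is at 146085244 to 146092203 of chromosome 8. It had 1529 and 980 FPKM under high nitrogen, and 679 and 151 FPKM under low nitrogen. The groups did not overlap, and the library lowest by far was low nitrogen replicate 2. Its log2 fold change was -1.93 (SE 0.75, adjusted p = 0.250 from limma). Without low nitrogen replicate 2 it was -0.85, and without low nitrogen replicate 1 it was -3.01, so its size rests on single libraries.

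The 3 carbonic anhydrase loci together had 10415 and 8615 FPKM under high nitrogen, and 3816 and 2252 FPKM under low nitrogen. The share of GRMZM2G121878 in this sum was 65.5% and 61.1% under high nitrogen, against 47.1% and 34.2% under low nitrogen. The share of GRMZM2G348512 was 19.8% and 27.5% under high nitrogen, against 35.1% and 59.1% under low nitrogen. GRMZM2G348512 was thus the most expressed carbonic anhydrase of the list in low nitrogen replicate 2, and GRMZM2G121878 in the other libraries. Carbonic anhydrase genes are similar in sequence, and a splitting of fragments between them was not tested.

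**Figure D2:**
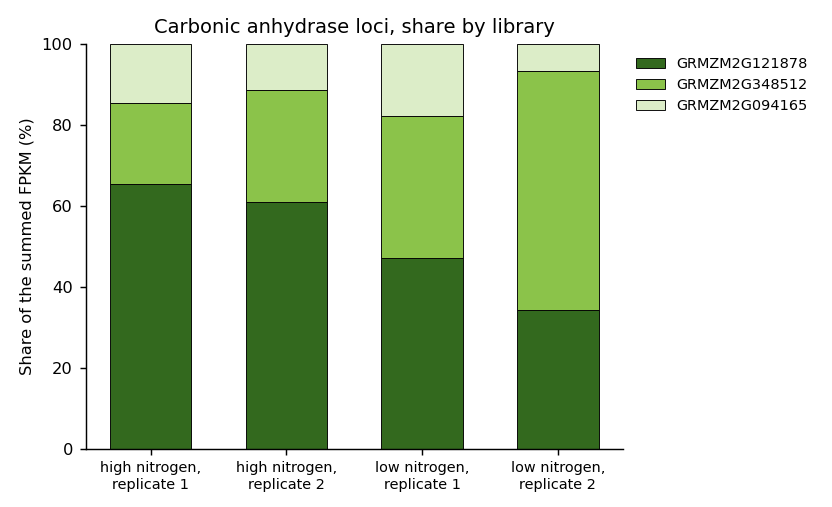
Share (%) of each of the 3 carbonic anhydrase loci in their summed FPKM, with 1 stacked bar per library. GRMZM2G121878 takes 61.1% and more in high nitrogen and at most 47.1% in low nitrogen.

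PEPC (GRMZM2G083841), which makes the primary fixation in the mesophyll, is at 62306266 to 62311673 of chromosome 9. It had 19557 and 13126 FPKM under high nitrogen, and 4803 and 2630 FPKM under low nitrogen. Each high nitrogen library lay well above each low nitrogen library. The means were 16341 ± 4548 and 3717 ± 1536 FPKM (SD, n = 2 each), and the log2 fold change was -2.17 (SE 0.43, adjusted p = 0.120 from limma). The position of PEPC among all loci, ordered from the highest FPKM, was 7 and 13 under high nitrogen, against 22 and 45 under low nitrogen.

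NADP-MDH (GRMZM2G129513), the malate-forming enzyme, is at 203209824 to 203213983 of chromosome 1. Its level was 1631 and 1327 FPKM under high nitrogen, and 768 and 535 FPKM under low nitrogen. The groups did not overlap. The means were 1479 ± 215 and 651 ± 165 FPKM (SD, n = 2 each), with a log2 fold change of -1.20 (SE 0.31, adjusted p = 0.152 from limma).

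PPDK (GRMZM2G306345), which regenerates the CO2 acceptor, had 18089 and 12620 FPKM under high nitrogen, and 8805 and 7886 FPKM under low nitrogen. The groups did not overlap, and the low nitrogen libraries differed little. The means were 15354 ± 3868 and 8346 ± 649 FPKM (SD, n = 2 each), with a log2 fold change of -0.86 (SE 0.33, adjusted p = 0.247 from limma). It turned to 0.24 under quantile normalization. In contrast to PEPC, its position among all loci stayed between 8 and 16 in the 4 libraries. Its locus spans 61852 bases of chromosome 6, from 146128291 to 146190142, and another locus with the same bounds and name had at most 1.63 FPKM. In maize the gene also makes a shorter transcript for a cytosolic enzyme, which the table does not separate.

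PDRP1, the regulatory protein of PPDK, is at 204498422 to 204501387 of chromosome 2. It had 1488 and 1098 FPKM under high nitrogen, and 526 and 454 FPKM under low nitrogen. Again the groups did not overlap. Its log2 fold change was -1.38 (SE 0.28, adjusted p = 0.124 from limma).

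PEPCK (GRMZM2G001696), which releases CO2 in the bundle sheath, is at 35744406 to 35748813 of chromosome 1. It had 1971 and 3173 FPKM under high nitrogen, and 1663 and 2655 FPKM under low nitrogen. The treatments overlapped, and the replicates of a treatment differed more than the treatments did. The means were 2572 ± 850 and 2159 ± 702 FPKM (SD, n = 2 each). The log2 fold change was -0.25, with a 95% interval from -1.27 to 0.77 (adjusted p = 0.765 from limma), which allows either sign. Its direction was not stable, with 0.46 at equal FPKM sums, 0.76 under quantile normalization, 0.092 without high nitrogen replicate 2 and 0.086 without low nitrogen replicate 1.

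**Figure D3:**
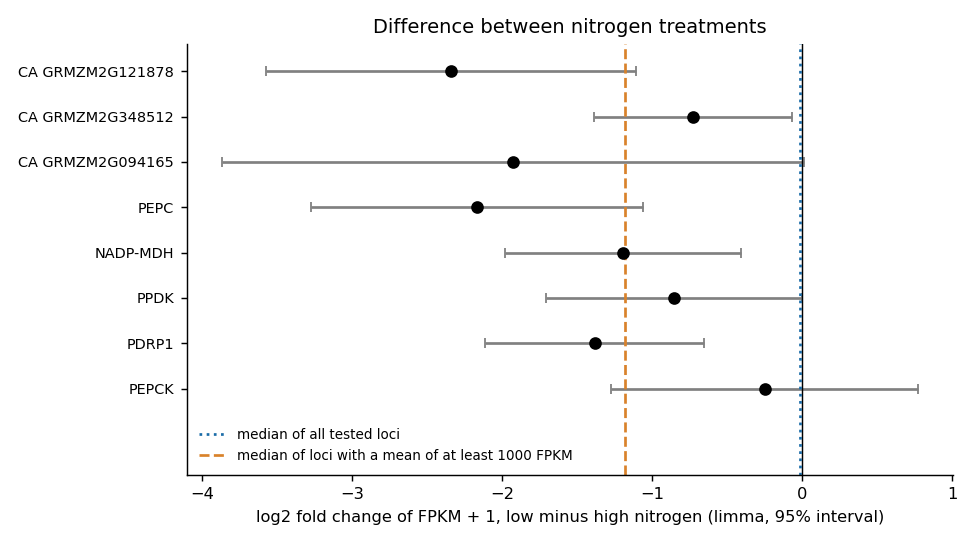
Log2 fold change of FPKM + 1 (low minus high nitrogen) with limma's 95% interval for the 7 genes and PDRP1; vertical lines mark 0 and the medians of all tested loci (-0.01) and of loci with a mean of at least 1000 FPKM (-1.18). PEPC, GRMZM2G121878 and GRMZM2G094165 lie farthest to the left, and the intervals of PEPCK and GRMZM2G094165 include 0.

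The order of the genes differed between the treatments. In high nitrogen PEPC and PPDK stood at the top with ranges that overlapped, followed by GRMZM2G121878. PEPCK and GRMZM2G348512 came next and overlapped each other. NADP-MDH and GRMZM2G094165 were lowest, and they overlapped as well. In low nitrogen PPDK stood alone at the top. PEPC overlapped PEPCK there, GRMZM2G121878 overlapped both PEPCK and GRMZM2G348512, and NADP-MDH again overlapped GRMZM2G094165.

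Ratios of FPKM within a library do not change when all values of that library are multiplied by the same factor. The ratio of PEPC to PPDK was 1.08 and 1.04 under high nitrogen, against 0.545 and 0.334 under low nitrogen. Both enzymes act in the mesophyll, and the ratio was lower in both low nitrogen libraries than in either high nitrogen library. The ratio of PEPC to NADP-MDH was 12.0 and 9.89 under high nitrogen, against 6.25 and 4.92 under low nitrogen, again without overlap. PEPC was thus lower relative to both mesophyll enzymes that follow it in the cycle. PPDK was higher relative to its regulator, with a PPDK to PDRP1 ratio of 12.2 and 11.5 under high nitrogen, against 16.7 and 17.4 under low nitrogen. The 3 carbonic anhydrases together had 0.533 and 0.656 of the PEPC level under high nitrogen, against 0.795 and 0.856 under low nitrogen. GRMZM2G121878 alone had 0.349 and 0.401 of it under high nitrogen, against 0.375 and 0.293 under low nitrogen, which overlapped.

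Mesophyll enzymes were set against the bundle sheath enzymes in the same way, with PEPCK as the single bundle sheath enzyme left. The ratio of PEPC to PEPCK was 9.92 and 4.14 under high nitrogen, against 2.89 and 0.991 under low nitrogen. The ratio of PPDK to PEPCK was 9.18 and 3.98 under high nitrogen, against 5.30 and 2.97 under low nitrogen, and here the treatments overlapped. PEPC thus separated the treatments relative to PEPCK and PPDK did not. For the sum of PEPC, PPDK and NADP-MDH over PEPCK, the values were 19.9 and 8.53 under high nitrogen, against 8.65 and 4.16 under low nitrogen, with overlap. On the log2 scale this ratio was lower by 1.12 in low nitrogen, against an SD between replicates of 0.81. Single libraries set much of this size. The difference was -0.51 without high nitrogen replicate 1 and -0.59 without low nitrogen replicate 2.

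Another measure of the bundle sheath was taken from Rubisco. This carbon-fixing enzyme of the Calvin cycle is made in bundle sheath cells, and its small subunit was read from 2 loci. GRMZM2G113033 had 8857 and 11321 FPKM under high nitrogen, and 4677 and 2387 FPKM under low nitrogen. The locus named RBCS on chromosome 4 had 4176 and 6101 FPKM under high nitrogen, and 2975 and 1592 FPKM under low nitrogen. Both were lower in both low nitrogen libraries, with log2 fold changes of -1.58 and -1.21 (adjusted p = 0.160 and 0.216 from limma). The value of RBCS was -0.76 without low nitrogen replicate 2. With these 2 loci in place of PEPCK, a choice made after the values were seen, the log2 difference of the summed mesophyll ratio was 0.078 in place of -1.12. The ratio was then 3.01 and 1.55 under high nitrogen, against 1.88 and 2.78 under low nitrogen. The treatments overlapped in the sum, while its terms differed. PEPC relative to the Rubisco loci was 1.501 and 0.753 under high nitrogen, against 0.628 and 0.661 under low nitrogen, lower by 0.72 on the log2 scale and without overlap. The SD between replicates on that scale was 0.70 under high and 0.053 under low nitrogen. PPDK relative to them was 1.39 and 0.724 under high nitrogen, against 1.15 and 1.98 under low nitrogen, with overlap. PEPCK relative to these loci was 0.151 and 0.182 under high nitrogen, against 0.217 and 0.667 under low nitrogen, so the low nitrogen libraries were higher without overlap.

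**Figure D4:**
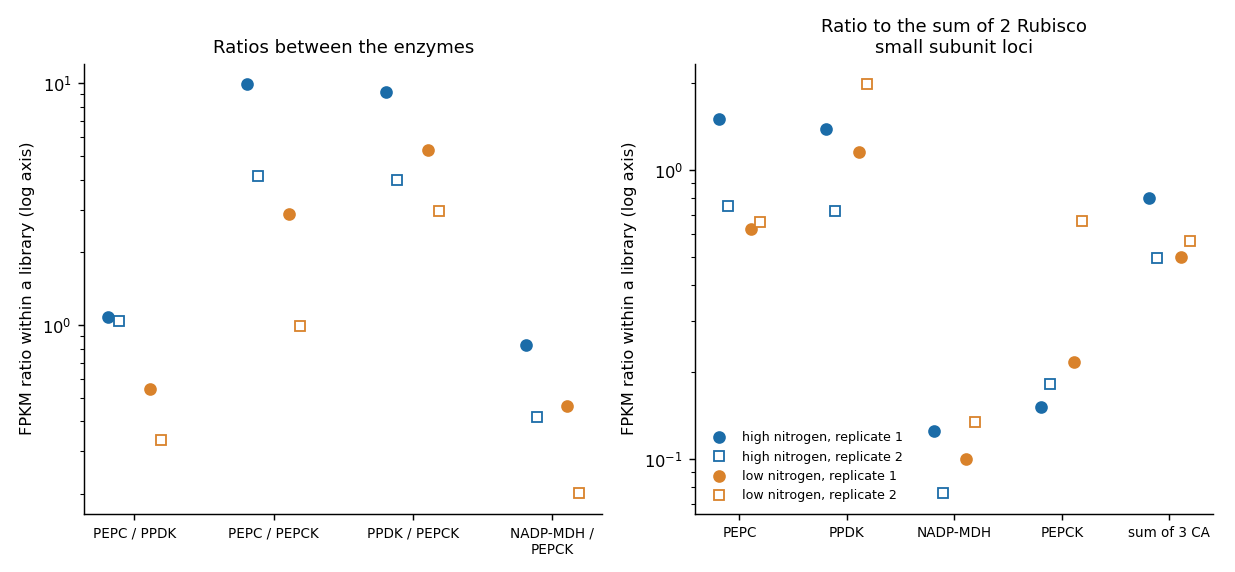
FPKM ratios within each of the 4 libraries on log axes, on the left between C4 enzymes and on the right relative to the summed Rubisco small subunit loci (CA, carbonic anhydrases). PEPC to PPDK separates the treatments (1.08 and 1.04 against 0.545 and 0.334), and PPDK to the Rubisco loci overlaps.

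The replicates of a treatment were not alike for these genes. In both treatments replicate 2 was below replicate 1 at 5 of the 7 genes, namely PEPC, PPDK, NADP-MDH, GRMZM2G121878 and GRMZM2G094165, and it was above replicate 1 at PEPCK. How often all tested loci show this was not counted, and replicate 2 had the lower FPKM sum in both treatments. On the log2 scale the difference of replicate 2 from replicate 1 at PEPC was -0.58 under high and -0.87 under low nitrogen. At PEPCK it was 0.69 under high and 0.67 under low nitrogen. The labels give no link between libraries of the same number.

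The remaining loci of the pathway were read from lists of identifiers. The list for the aminotransferases and the transporters of C4 acids and of phosphoenolpyruvate or pyruvate had 9 names, of which 8 were tested. Limma called none, and 7 of the 8 were lower with an unadjusted p under 0.05, against 10.8% of all tested loci and 70.2% of those with a mean of at least 1000 FPKM. Among the 8, GRMZM2G174107 and GRMZM2G138258 alone had such a mean, so that class is not matched to the list in level. The median log2 fold change was -1.29 in the list and -0.01 over all tested loci. Among those the sources name, pOMT1 (GRMZM2G383088), the plastid exchanger of oxoglutarate and malate, had 1153 and 936 FPKM under high nitrogen, and 675 and 269 FPKM under low nitrogen. pDCT2 (GRMZM2G086258), a plastid dicarboxylate transporter, had 682 and 751 FPKM under high nitrogen, and 416 and 189 FPKM under low nitrogen. The lowest log2 fold change was -3.34 at GRMZM2G088064, described as an alanine aminotransferase, with 44.4 and 20.8 FPKM under high nitrogen, and 1.76 and 2.49 FPKM under low nitrogen (SE 0.41, adjusted p = 0.0622 from limma). The highest was -0.92 at GRMZM2G040933 (pDCT1), and -0.51 there without low nitrogen replicate 2. At equal FPKM sums all 8 stayed below 0 but lay nearer to it. There pDCT1 was at -0.22, pOMT1 at -0.58, pDCT2 at -0.64 and GRMZM2G088064 at -2.76.

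Other loci listed for the same enzyme families were less uniform. Of its 15 names, PDRP1 included, 11 were tested, and limma called none of them. At an unadjusted p under 0.05, low nitrogen was lower at 3 loci and higher at 3, against 10.8% lower and 20.1% in either direction over all tested loci. The median log2 fold change of the list was -0.25. The second PPDK gene, PPDK2 (GRMZM2G097457), had 109 and 103 FPKM under high nitrogen, and 31.4 and 19.1 FPKM under low nitrogen, a log2 fold change of -2.07 (SE 0.31, adjusted p = 0.0810 from limma). This was the lowest of the list.

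The 3 loci that were higher at an unadjusted p under 0.05 belonged to the PEPCK, PEPC and malic enzyme families. The second PEPCK gene, pck2 (GRMZM5G870932), had 26.6 and 72.1 FPKM under high nitrogen, and 139.8 and 139.5 FPKM under low nitrogen (log2 fold change 1.65, adjusted p = 0.182 from limma). The PEPC gene pep7 (GRMZM2G069542) had 5.84 and 10.9 FPKM under high nitrogen, and 16.0 and 23.0 FPKM under low nitrogen (log2 fold change 1.16, adjusted p = 0.189 from limma). The malic enzyme gene me2 (GRMZM2G122479) had 37.3 and 50.9 FPKM under high nitrogen, and 70.8 and 90.5 FPKM under low nitrogen, and its locus spans 49301 bases. In each of these the low nitrogen libraries lay above the high nitrogen libraries, which was so at 26.6% of all tested loci. These 3 loci were picked by p in this same comparison, which favours such a separation, so that share is no yardstick for them. Each stayed far below the level of PEPC or PEPCK. The highest log2 fold change was 2.06 at PPCK1 (GRMZM2G178074), a kinase that phosphorylates PEPC, with 2.58 and 27.3 FPKM under high nitrogen, and 25.2 and 66.2 FPKM under low nitrogen. Its treatments overlapped (SE 1.06, adjusted p = 0.352 from limma). High nitrogen replicate 1 set much of this value, which was 0.57 without that library and 3.55 without high nitrogen replicate 2. Without high nitrogen replicate 1, pck2 was at 0.94 and pep7 at 0.77, both above PPCK1.

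All 4 tested loci of the bundle sheath list had both low nitrogen libraries below both high nitrogen libraries. This was so at 27.2% of all tested loci and 78.1% of those with a mean of at least 1000 FPKM. At an unadjusted p under 0.05 by limma, 3 of the 4 were lower, against 10.8% and 70.2% of the same classes. GRMZM2G162282 and GRMZM2G026024 were expressed far below the second class, which is not matched to them in level. Limma called none of the 4. RBCS, among the 4, was added after the table was seen and enters these counts and the median. The median log2 fold change of the 4 loci was -1.35, from -1.58 at GRMZM2G113033 to -0.54 at GRMZM2G026024, which was at -0.28 without low nitrogen replicate 2.

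**Figure D5:**
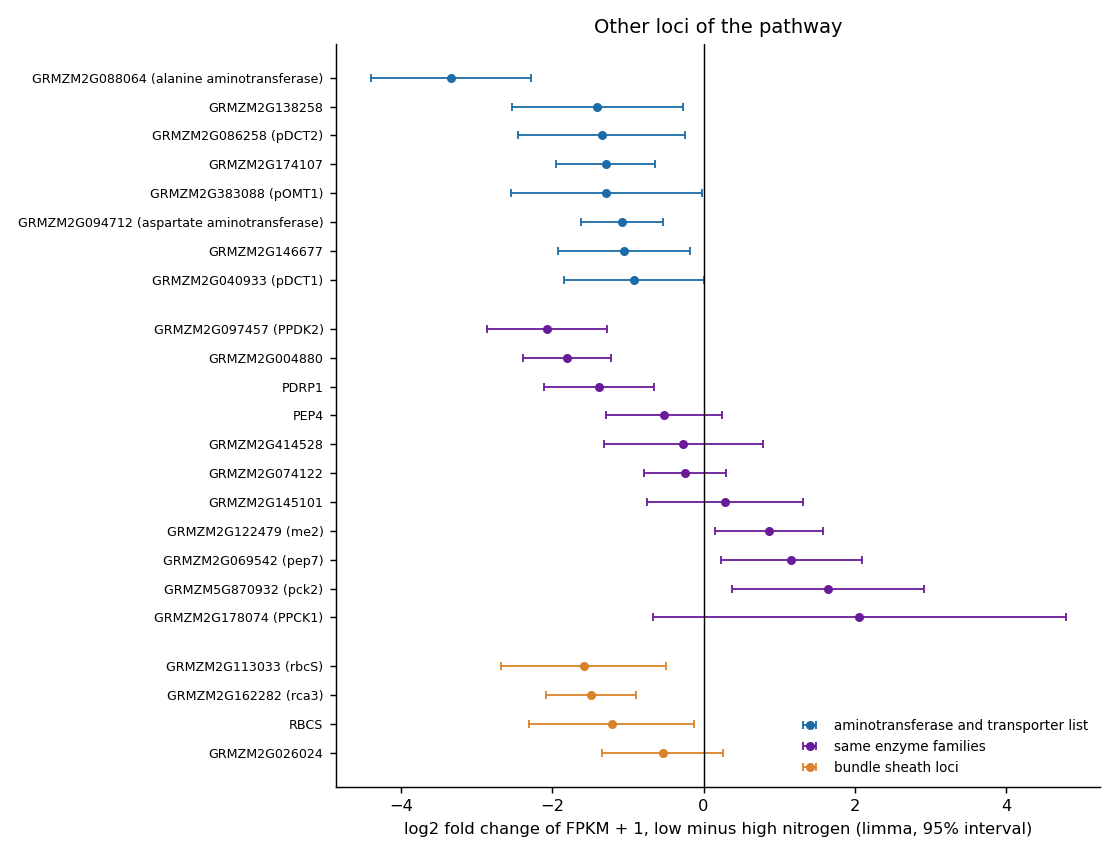
Log2 fold change of FPKM + 1 (low minus high nitrogen) with limma's 95% interval for the tested loci of the 3 lists. The loci of the aminotransferase and transporter list and of the bundle sheath list all lie below 0. The enzyme family list runs from -2.07 at PPDK2 to 2.06 at PPCK1.

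The genes whose profile was most like that of PEPC were searched among named loci with a mean of at least 1000 FPKM. A locus counted as named if the deposited data, RefSeq or the MapMan lists of the study name it. Those lists hold genes the study called between these same libraries, so the search leans toward genes it reported as changed. AC216353.2_FG005 and GRMZM2G016677 entered through the lists alone. Likeness was the Euclidean distance between log2(FPKM + 1) profiles over the 4 libraries, each centred on its own mean. The closest was AC216353.2_FG005 (0.361), placed in nucleotide metabolism by its MapMan class. Its level was far above that of PEPC, with 170025 and 116749 FPKM under high nitrogen, and 53098.5 and 30219 FPKM under low nitrogen. Next came GRMZM2G016677 (0.406), a photosystem II subunit, and GRMZM5G818058 (0.428), a photosystem I subunit. GRMZM2G092427 (0.538, lhcb6) and GRMZM2G048907 (0.550, the gamma chain of ATP synthase) followed. Among the 7 genes, GRMZM2G121878 was closest to PEPC with a distance of 0.336, and PEPCK was farthest with 2.38.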

How the data were processed

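Reads from 4 leaf libraries were trimmed, aligned to B73 RefGen_v3 with TopHat2 and assembled with StringTie by the authors, who used edgeR for their own test. The deposited values are FPKM per locus, computed by the authors, and versions were not given in the sources used here. The 44070 rows hold 43110 distinct loci, and each locus was used once. Starts are written from 1.

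The fit took the 22889 loci that reached 1 FPKM in 2 or more libraries, the limit set in the study's methods. Low and high nitrogen were compared on log2(FPKM + 1) with limma 3.58.1 in R 4.3.3 (lmFit, eBayes with a trend) and Benjamini-Hochberg adjustment over all tested loci. A fold change on this scale understates that of low loci. Ratios between genes were taken within a library and described without a test. Tables and plots were made in Python 3.11.15 with pandas 2.3.3, numpy 2.4.6 and matplotlib 3.10.9.

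The text names all 9 listed genes, and of each further list the lowest and highest log2 fold change, plus PDRP1, RBCS, GRMZM2G113033, pOMT1, pDCT2, pep7, pck2, me2 and the 5 named loci most like PEPC. The ratio was planned with NADP-ME beside PEPCK and was computed with PEPCK alone. RBCS was added after the table was seen, and pOMT1, pDCT2, pep7, pck2 and me2 were named after their values were seen. Members and lists were chosen with earlier results of these data known. Identifiers without a name in the table, the supplementary tables or RefSeq (Zm-B73-REFERENCE-NAM-5.0, used for names alone, which holds all 9 listed identifiers) are given without a role. Alternatives tried were a pseudocount of 0.1, no filter, a filter of 5 FPKM, scaling to equal sums, equal medians or equal quantiles, a fit without trend, the replicate number as a block, calls by adjusted p alone, omission of each library, and other forms of the ratio.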

Additional observations from a re-analysis of the deposited data

How the results depend on the processing

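Of the 22889 tested loci 123 were called, and 0 of the 7 genes (5 at an unadjusted p under 0.05 by limma). Over the settings that kept all 4 libraries, that 5 ran from 1 under quantile normalization to 6 at equal medians, with 2 at equal FPKM sums. The number of loci called was 23 with no filter on low values, 60 at equal FPKM sums and 617 with a replicate block. In that fit 1 of the 7 genes was called, GRMZM2G121878 (adjusted p = 0.0446 by limma, from 0.0446 to 0.550 over its alternatives), and among listed loci GRMZM2G088064, GRMZM2G097457 and GRMZM2G004880. The deviations of same-numbered libraries had a correlation of 0.203 across loci, and no label pairs them. With 1 library left out, 0 to 16 loci and none of the 7 genes were called, with 2012 to 3959 loci at an unadjusted p under 0.05 by limma. In such fits a lone library is assumed to vary like the others.

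Equal FPKM sums moved the median log2 fold change of all loci by 0.604. Direction turned at PEPCK (0.46), GRMZM2G074122 (0.42), GRMZM2G414528 (0.43), PEP4 (0.17) and GRMZM2G026024 (0.16) at equal sums. Under quantile normalization it turned at PEPCK (0.76), PPDK (0.24) and GRMZM2G348512 (0.19). With a library left out it turned at PEPCK (GRMZM2G001696, -0.59 to 0.092, and 0.086 without low nitrogen replicate 1), at GRMZM2G145101 (-0.17 to 0.74) and at GRMZM2G414528 (-0.76 to 0.22). PEPC stayed between -2.61 and -1.02 and GRMZM2G121878 between -2.96 and -1.38 in all settings run. Of 360 log2 fold changes under an alternative, 344 kept direction and side of the threshold. The cause of the others was not tested.

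The log2 difference of the mesophyll to PEPCK ratio was -1.12, and between -1.73 and -0.51 with a library left out. It was -0.21 with the Rubisco small subunit loci added to PEPCK and 0.078 with them in place of PEPCK, both chosen after seeing the data. The planned form without PEPCK was not run, since no bundle sheath enzyme was left.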
